A study of Homo sapiens with 8 samples.

Results

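The ZBTB genes encode zinc-finger transcription factors that carry a BTB domain, and they were followed here as mRNAs in THP-1 cells, a monocytic line of acute myeloid leukaemia. Members were chosen by symbol, ZBTB followed by a number and an optional letter, with a mean of at least 20 reads over the chase libraries. This took 37 of 42 genes with such a symbol, out of 10643 genes at that mean and 15374 genes with any read. At the edge, ZBTB42 was just inside with a mean of 23.7 reads and ZBTB16 just outside with 12.7, and ZBTB7C, ZBTB8B, ZBTB32 and ZBTB12 had means of 2.86, 2.43, 0.43 and 0.29 reads. ZBTB8OS meets the rule by its symbol alone: it is named for lying opposite ZBTB8 and encodes archease, a cofactor of the tRNA ligase complex, so group values are also given for the other 36 genes.

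BTB zinc-finger proteins pair through the BTB domain, which also recruits corepressor complexes such as NCOR and BCOR or the CUL3 ubiquitin ligase, and bind DNA through C-terminal zinc fingers. Several family members set blood-cell fates, others read methylated CpG, regulate the cell cycle or sit at telomeres. How long their mRNAs last bears on how fast a cell can replace these regulators.

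Turnover was measured by SLAM-seq, in which 4-thiouridine (4sU) built into new RNA is alkylated and then read as T-to-C changes in the sequenced 3′ ends. In 7 conditions cells were given 30 µM 4sU for 12 h with fresh medium every 3 h, washed, and put in 3 mM uridine for 0 h, 20 min, 40 min, 1 h, 2 h, 8 h or 12 h. An eighth condition had no 4sU. Each condition had 1 library, and nothing in the labels says that the times came from separate cultures, so no condition was tested against another and p-values measure scatter about a trend over the 7 chase libraries, with 5 residual degrees of freedom. Gene reads numbered 2915519 without 4sU and 8300661 to 11223669 in the chase libraries. The labelled share of all reads was 30.6% at 0 h and 5.53% at 12 h, and 0.0121% without 4sU. All 14 monocytic leukaemia markers had at least 10 reads, with a summed level of 2167 to 3376 CPM, the reads scaled to a common library total, against at most 7.2 CPM for lymphoid, 1.08 for erythroid and 3.49 for epithelial or stromal markers.

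Of the neighbouring genes in the family, ZBTB1 and ZBTB25 start back to back on chromosome 14 and, as described below, the totals of their most covered segments changed in opposite directions. Their RefSeq promoter windows (GRCh38.p14, 250 bases before to 50 after the start) are printed 5′ to 3′ on each gene's own strand, with the 148 bases that both windows hold in capitals. ZBTB1 lies on the plus strand at chr14:64503637-64503936 and ZBTB25 on the minus strand at chr14:64503789-64504088. Another ZBTB25 window, at chr14:64503915-64504214, shares 22 bases with that of ZBTB1 and is not printed.
ZBTB1: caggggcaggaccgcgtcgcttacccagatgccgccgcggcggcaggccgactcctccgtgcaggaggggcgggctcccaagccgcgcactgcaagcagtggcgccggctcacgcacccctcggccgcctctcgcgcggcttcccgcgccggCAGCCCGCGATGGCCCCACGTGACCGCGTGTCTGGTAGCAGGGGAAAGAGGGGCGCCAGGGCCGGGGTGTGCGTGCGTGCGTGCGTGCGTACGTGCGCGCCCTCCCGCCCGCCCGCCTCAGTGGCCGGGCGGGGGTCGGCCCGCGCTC
ZBTB25: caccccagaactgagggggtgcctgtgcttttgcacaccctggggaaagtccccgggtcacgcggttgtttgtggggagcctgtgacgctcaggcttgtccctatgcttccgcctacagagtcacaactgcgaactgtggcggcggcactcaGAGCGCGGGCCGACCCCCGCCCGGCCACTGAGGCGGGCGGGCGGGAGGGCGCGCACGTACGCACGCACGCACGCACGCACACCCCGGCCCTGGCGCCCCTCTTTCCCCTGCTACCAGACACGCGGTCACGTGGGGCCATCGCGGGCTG

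Sites in the 3′ UTRs are shown for members with short half-lives and, beside them, for ZBTB38, which has one of the longest, as 25-base windows around TATTTAT, the core of an AU-rich element of the kind that can speed mRNA decay. Capitals mark the motif, and positions count from the base after the stop codon in the GENCODE 29 transcript (GRCh38). Of 4 such sites in ZBTB39, 1 is shown. Of the other slow zinc-finger members, ZBTB44 has 3 such sites, not shown, and ZBTB1 has none.
ZBTB43, position 4030 of 4297: aaagtacttTATTTATgcaagtcag
ZBTB6, position 2382 of 2742: gatggttatTATTTATattatttat
ZBTB6, position 2391 of 2742: tatttatatTATTTATtcctgttca
ZBTB39, position 1871 of 3945: tcctgtcttTATTTATattgagatg
ZBTB38, position 2285 of 3816: atggcagaaTATTTATacatgaaaa
On the transcript strand, TATTTAT was present in 58.8% of 34 ZBTB 3′ UTRs (20 genes), against 36% of 9501 UTRs of all genes with a resolved half-life. The ZBTB UTRs were longer, with a median of 2853 against 1324 bases, and per kilobase the motif was about as frequent in both, at 0.345 and 0.324. The shorter ATTTA, which TATTTAT contains, occurred 2.75 and 2.33 times per kilobase, and TGTANATA, the letters bound by Pumilio proteins, 0.242 and 0.245 times. ZBTB9 and ZBTB3, with half-lives among the shortest of the family, had no TATTTAT in their UTRs. Across the 34 genes Spearman's rho between half-life and UTR length was 0.04 (all 9501 genes: -0.23). Between half-life and the number of TATTTAT sites it was -0.07 (all genes: -0.21). For ATTTA it was 0.1 (all genes: -0.21), and for TGTANATA 0.39 (all genes: -0.19), of opposite sign in the family and over all genes. For the T content of the transcript's last 250 bases it was 0.04 (all genes: -0.14). These values are descriptions over genes that share the same libraries.

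The labelled share declined in every ZBTB mRNA followed. Below, the 7 values of a gene stand in order of chase, from 0 h, 20 min and 40 min through 1 h and 2 h to 8 h and 12 h, and half-lives are given ± the standard error of the fit with the 95% interval in brackets. The labelled share fell over the chase in 37 of 37 members (edgeR's quasi-likelihood test with Benjamini-Hochberg adjustment over all genes), where 95.1% of the 10564 genes tested were called lower, so the count itself does not set the family apart. Without the 12 h library the decline of ZBTB8OS and ZBTB47 was no longer called (adjusted p = 0.157 and 0.111), nor was that of ZBTB47 without the 8 h library (adjusted p = 0.0519). Without ZBTB8OS, the median share in the other 36 genes was, in order of chase, 57.1, 53.8, 53.4, 45.4, 31, 1.63 and 0%. Over all genes tested the median began at 44.6%, stood at 32.9% by 2 h and 5.63% by 8 h, and ended at 1.27%. Of the 36 genes, 27 stood above the all-gene median at 0 h and 9 below, ZBTB7A among the latter. At 2 h 15 were above and 21 below, and at 8 h 4 were above and 32 below. With their reads pooled, the 36 genes kept 45.4% at 1 h of an initial 50.5%, then 29.2% at 2 h and 2.46% at 8 h, so most of the loss came after the first hour. No labelled read was found among 2823 member reads without 4sU, which allows a share of up to 0.106%. At 0 h the 95% exact (Clopper-Pearson) interval of a share was 41.6 to 44.3% for ZBTB7A, the deepest member, 65.1 to 83.3% for ZBTB39 and 5.45 to 41.9% for ZBTB42, the shallowest over the chase. The limit and these intervals cover counting error only, since the labels name no molecular identifiers.

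**Figure D1:**
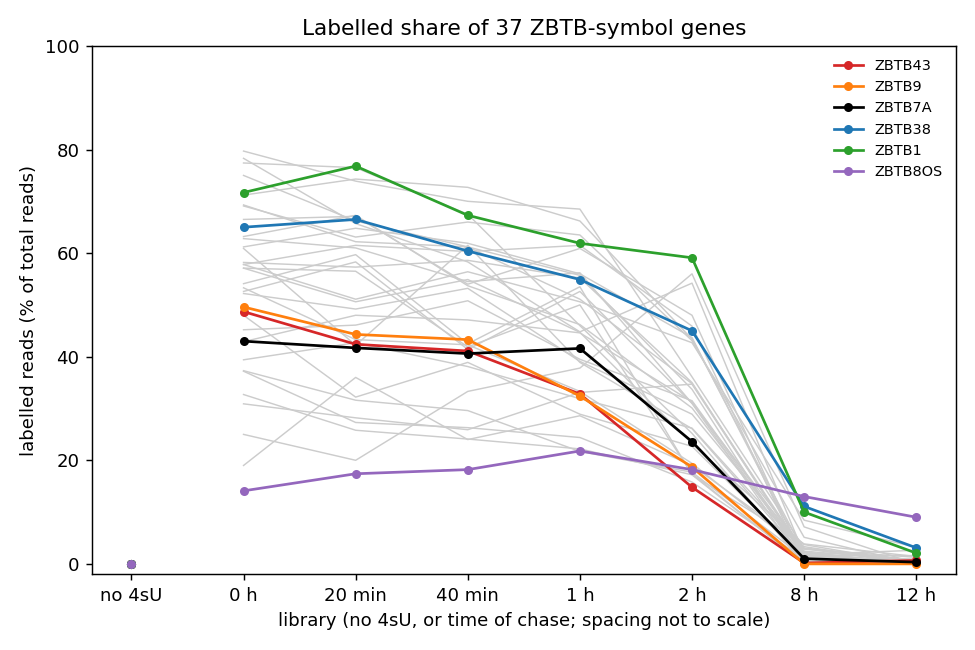
Labelled reads as a percentage of total reads (vertical axis) in the library without 4sU (separate points) and at each chase time (horizontal axis, spacing not to scale) for the 37 genes, 1 line a gene and 1 library a point, with 6 genes in colour. ZBTB43 and ZBTB9 fall earliest of the coloured genes, ZBTB38 and ZBTB1 keep 11.1% and 10% at 8 h, and ZBTB8OS starts at 14.1% and still holds 9.01% at 12 h.

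Half-lives of the labelled share were short and close together. Of the 36 genes without ZBTB8OS, 34 had a resolved half-life, with a median of 1.89 h (quartiles 1.58 and 2.06 h) and a range of 1.3 to 3.07 h. A value counted as resolved where the decline was called, the fit put at least 10 labelled reads above background at 0 h, its log rate had an error no greater than 0.5, and it lay from 0.25 to 24 h. With ZBTB8OS the median of 35 genes was 1.91 h. Over 9570 genes the median was 2.67 h (quartiles 2.12 and 3.89 h). Half-lives under 2 h were found in 24 of the 34 genes (70.6%), against a background of 19.2% of all resolved genes, and 31 of 34 were shorter than the all-gene median. Many values lay near 2 h: without the 8 h library 14 of 34 were under it (41.2%, against 11.1% of all genes), while 30 of 34 stayed shorter than that fit's all-gene median of 2.94 h. The time window also moved single values. With the 0 to 2 h libraries 25 of the 36 genes were resolved and 12 of them were under 2 h (48%, against 21.8%). Of these 25, 17 were shorter than that fit's all-gene median of 2.92 h. Over the same 34 genes as before, resolved or not, 13 were under 2 h and the median was 2.38 h. ZBTB2, for example, went from 2.36 to 6.82 h and ZBTB7A from 1.88 to 2.75 h. With the 1 to 12 h libraries 27 of 31 were under 2 h (87.1%, against 36.2%), and ZBTB7A had 1.34 h. In the fit to all chase libraries the whole 95% interval of 21 of the 34 lay under the all-gene median (61.8%, against 16.4% of all resolved genes). For none did it lie wholly above. The same short values were seen in other zinc-finger genes: 321 resolved genes with a ZNF number symbol had a median of 1.9 h, and 58.3% were under 2 h. A half-life of the share equals that of the mRNA only where the total is steady, which did not hold for every member. The fit also takes a single exponential, while most of the pooled loss came after the first hour. No library lay between 2 h and 8 h.

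**Figure D2:**
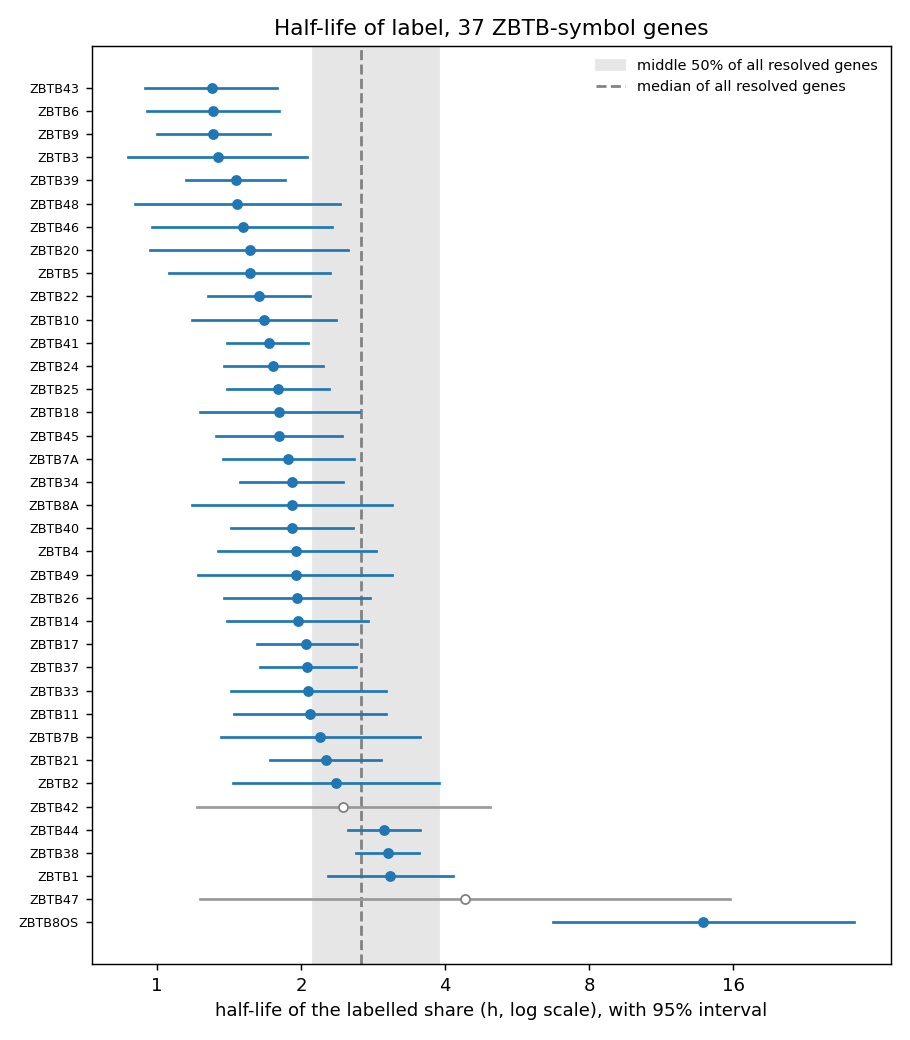
Half-life of the labelled share in hours on a log axis, with its 95% interval from the fit, for the 37 genes in order; open grey points are the unresolved ZBTB42 and ZBTB47. The dashed line is the median of all resolved genes (2.67 h) and the band their middle 50%; most ZBTB genes sit left of the line and ZBTB8OS, at 13.8 h, far right.

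The 4 shortest values among members with a mean of at least 50 reads belonged to ZBTB43, ZBTB6, ZBTB9 and ZBTB39. ZBTB43 (reads at chr9, segment start 129596193, hg19, plus strand) had labelled shares of 48.7, 42.4, 41.1, 32.8, 14.8, 0.17 and 0.661%. Its share was already lower at 1 h than in any earlier library, and the half-life was 1.3 ± 0.21 h (0.942 to 1.78 h), at percentile 1.25 of all resolved genes. ZBTB6 had labelled shares of 77.4, 76.5, 67.5, 46, 25.2, 0 and 0%. Its fitted half-life was 1.31 ± 0.213 h (0.952 to 1.8 h). For ZBTB9 the shares were 49.6, 44.3, 43.3, 32.4, 18.7, 0 and 0%. The half-life of ZBTB9 was 1.31 ± 0.182 h (0.998 to 1.72 h). ZBTB39 started high, with shares of 75, 66.2, 61.2, 55.7, 33.7, 0 and 0%. Its half-life was 1.46 ± 0.175 h (1.15 to 1.85 h), and its interval overlapped those of the other 3 genes, so these neighbours in the order did not differ beyond their error. No labelled read of ZBTB6, ZBTB9 or ZBTB39 was found at 8 h or 12 h.

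At the other end stood ZBTB8OS, ZBTB1, ZBTB38 and ZBTB44. ZBTB8OS had labelled shares of 14.1, 17.4, 18.2, 21.8, 18.2, 13 and 9.01%. Its share did not drop over the first hour, and the half-life was 13.8 ± 5.12 h (6.71 to 28.6 h), at percentile 98.1. Its interval did not overlap that of any resolved ZBTB transcription factor. ZBTB44 had shares of 57.8, 51.1, 56.4, 50.6, 42.7, 8.44 and 3.19%. The half-life of ZBTB44 was 2.98 ± 0.267 h (2.5 to 3.55 h), and those of ZBTB38 and ZBTB1, given with their groups below, were 3.03 and 3.07 h. These 3 genes lay at percentiles 59.1, 60.6 and 61.6 of all resolved genes, slightly above the middle of the transcriptome while being the slowest of the zinc-finger members.

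Among 12 listed lineage and blood-cell regulators, some described below by roles outside blood, 10 reached the read minimum, and their median half-life was 1.84 h. In total level 4 of these 10 rose and 3 fell, where 27.4% of all genes tested were called higher and 23.9% lower. ZBTB7A, which silences fetal globin and directs lineage choice, was by far the most abundant member, with 4700.4 reads on average and 40.1% of all member reads in the chase. Its total level was 615, 569, 559, 486, 495, 398 and 469 CPM. Its labelled shares were 43, 41.7, 40.6, 41.6, 23.6, 1.01 and 0.334%. The share stayed flat for an hour and then dropped, with a half-life of 1.88 ± 0.305 h (1.37 to 2.58 h). A single exponential has no such flat hour, and the Pearson dispersion about it was 51.5. The fits to the 0 to 2 h and 1 to 12 h libraries, 2.75 and 1.34 h, both lay outside that interval. Total ZBTB7A fell by 0.53 on the log2 scale over 12 h (adjusted p = 0.00721). The change was -1.05 without the 12 h library (adjusted p = 0.000241) and -0.30 with the 1 to 12 h libraries, where it was not called (adjusted p = 0.167). Labelled ZBTB7A went from 264 to 1.57 CPM between 0 h and 12 h while unlabelled ZBTB7A went from 351 to 468 CPM. ZBTB7B, the CD4 T-cell fate factor ThPOK, had labelled shares of 30.9, 28.2, 25.9, 33.1, 34.7, 1.58 and 0.481%. The share of ZBTB7B was no lower at 2 h than at 0 h, and its half-life was 2.19 ± 0.54 h (1.36 to 3.55 h). Its CPM was 16, 14.1, 15, 15.1, 10.9, 28.2 and 25.1, so the 8 h and 12 h libraries lay above all earlier ones. The total rose by 0.87 on the log2 scale over 12 h (adjusted p = 0.00727).

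ZBTB46, a marker of classical dendritic cells, had the largest called rise of the family. Its CPM was 4.94, 6.24, 5.97, 4.99, 4.23, 9.09 and 15.4. The values at 8 h and 12 h exceeded every earlier one. The total rose by 1.37 on the log2 scale over 12 h (adjusted p = 0.000904). Without the 12 h library the change was 0.92 with an adjusted p of 0.105, so this call rested on that library. Labelled shares of ZBTB46 were 37.2, 27.3, 26.3, 24.4, 15.8, 0.98 and 0%, with a half-life of 1.51 ± 0.332 h (0.977 to 2.32 h). ZBTB25, a repressor of NFAT targets in T cells, had CPM of 7.23, 8.96, 7.44, 9.43, 7.68, 11.9 and 19.3. Its 12 h library was the highest. The total rose by 1.07 on the log2 scale over 12 h (adjusted p = 0.00119), and without that library the change was 0.64 with an adjusted p of 0.138. The labelled shares of ZBTB25 were 57.1, 50.6, 54.9, 44.7, 23.2, 3.73 and 0% and its half-life was 1.79 ± 0.224 h (1.4 to 2.29 h).

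ZBTB1, needed for lymphocyte development, was lower late in the chase, unlike its neighbour ZBTB25. Its CPM was 11.4, 9.3, 11.5, 11.7, 10.4, 7.13 and 5.78, lowest at 8 h and 12 h, and the total fell by 1.12 on the log2 scale over 12 h (adjusted p = 0.00113). Shares of ZBTB1 were 71.7, 76.8, 67.3, 61.9, 59.1, 10 and 2.08%, with a half-life of 3.07 ± 0.472 h (2.28 to 4.15 h). The deposited counts hold a second ZBTB1 segment further downstream (starts 64990365 and 64998616 on chromosome 14, hg19), with a mean of 43.1 reads and a half-life of 1.75 ± 0.389 h. The 95% intervals of the 2 segments overlapped. That segment had 27, 35, 28, 34, 80, 65 and 33 reads in order of chase, with its most at 2 h and 8 h, so the fall was seen in the main segment. With the segments summed the total fell by 0.70 (adjusted p = 0.0275).

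Of the remaining lineage genes, ZBTB18, a repressor best known in developing neurons, had CPM of 20.9, 23.8, 21.2, 21.9, 19.9, 34.1 and 33.5. Its total rose by 0.61 on the log2 scale over 12 h (adjusted p = 0.00543), both late libraries lying above all others, and its half-life was 1.8 ± 0.351 h (1.23 to 2.64 h). Labelled shares of ZBTB18 were 66.5, 67.1, 54, 60.9, 48, 0.522 and 0.36%. ZBTB11, required for neutrophil development in zebrafish, fell by 0.44 on the log2 scale over 12 h (adjusted p = 0.0107). Without the 12 h library that change was -0.70, and with the 1 to 12 h libraries it was not called (adjusted p = 0.113). It had shares of 71.2, 74.3, 72.7, 66.2, 43.4, 2.27 and 0% and a half-life of 2.09 ± 0.388 h (1.45 to 3.01 h). ZBTB24, mutated in a form of the ICF immunodeficiency syndrome, had shares of 63.2, 67.3, 53.7, 46.2, 30.1, 1.65 and 1.6% and a half-life of 1.75 ± 0.211 h (1.38 to 2.22 h). Its total changed by 0.41 on the log2 scale over 12 h (adjusted p = 0.0701), which did not pass. Shares of ZBTB14 were 58.2, 57.3, 58.6, 55.2, 35, 1.61 and 0%, with a half-life of 1.97 ± 0.341 h (1.4 to 2.76 h). Its total changed by -0.45 on the log2 scale over 12 h (adjusted p = 0.0551). ZBTB20, which represses alpha-fetoprotein in liver, was low, with 34.4 reads on average. It had shares of 53.3, 43.3, 42.3, 33.3, 19.4, 2.27 and 0% and a half-life of 1.56 ± 0.379 h (0.965 to 2.51 h). Its total changed by 0.39 on the log2 scale over 12 h (adjusted p = 0.267). ZBTB16, the PLZF gene fused to RARA in some promyelocytic leukaemias, had 0.723 to 2.07 CPM in the chase libraries and at most 3 labelled reads in any library, and ZBTB32 had 3 reads in all libraries together, so neither could be followed at this depth.

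**Figure D3:**
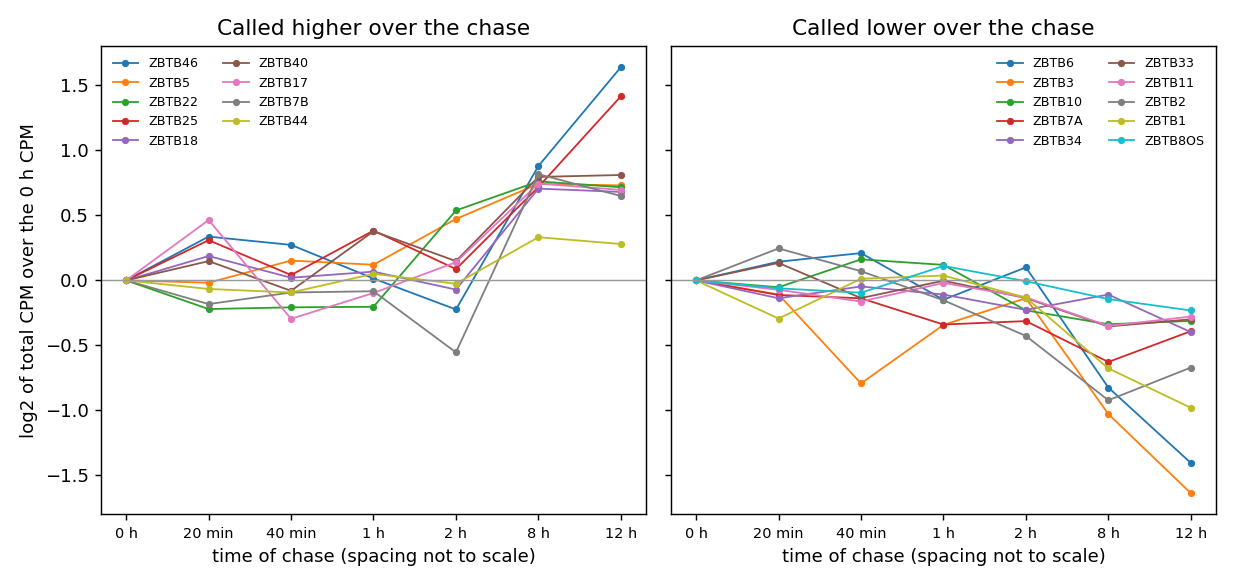
Log2 of total CPM over the 0 h CPM (vertical axis) at each chase time (horizontal axis, spacing not to scale) for the 9 members called higher (left) and the 10 called lower (right), 1 line a gene and 1 library a point. In the left panel all 9 lie above 0 at 8 h and 12 h, with ZBTB46 and ZBTB25 highest at 12 h; in the right panel ZBTB3, ZBTB6 and ZBTB1 are lowest at 12 h.

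Over the whole family, total level rose in 9 of 37 members and fell in 10, where 27.4% of 10643 genes were called higher and 23.9% lower; 18 members did not pass. Against 19 calls in all, 9 members were called with the 1 to 12 h libraries and 1 (ZBTB7A) with the 0 to 2 h libraries. The calls lost with the 1 to 12 h libraries were those of ZBTB2, ZBTB5, ZBTB7A, ZBTB10, ZBTB11, ZBTB17, ZBTB22, ZBTB33, ZBTB34, ZBTB40 and ZBTB44. The members' median change was -0.17 on the log2 scale over 12 h, and 0.02 over all 10643 genes. Besides ZBTB1, the largest falls were in ZBTB6 and ZBTB3. ZBTB6 CPM was 15.3, 16.9, 17.7, 13.8, 16.4, 8.64 and 5.78, the 2 late libraries lying under all others, and the total fell by 1.67 on the log2 scale over 12 h (adjusted p = 7.01e-05). ZBTB26, its neighbour on chromosome 9, changed by 0.02 on the log2 scale over 12 h (adjusted p = 0.969). ZBTB3, with 36.9 reads on average, had CPM of 5.63, 5.22, 3.25, 4.44, 5.12, 2.76 and 1.81. Its total fell by 1.55 on the log2 scale over 12 h (adjusted p = 0.00367), and without the 12 h library the adjusted p was 0.0559. Shares of ZBTB3 were 57.1, 56.5, 41.9, 50, 17.4, 0 and 0%, with a half-life of 1.34 ± 0.294 h (0.869 to 2.06 h). Abundant ZBTB44 had CPM of 112, 107, 105, 116, 110, 141 and 136 and rose by 0.24 on the log2 scale over 12 h (adjusted p = 0.0365), a call lost without the 0 h, 20 min, 40 min, 2 h or 8 h library (adjusted p 0.0513 to 0.0836). ZBTB8OS CPM was 67.5, 64.7, 63.2, 72.9, 67.2, 61.1 and 57.5 and its total fell by 0.38 on the log2 scale over 12 h (adjusted p = 0.00941). Unlabelled reads are the total less the labelled ones, so at a steady total they rise as label is lost. In the 36 genes the ratio of unlabelled CPM at 8 h to 0 h had a median of 2.51, ranging from 1.12 to 5.32. Over all genes tested the median ratio was 2.

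The 3 methyl-CpG-binding members all lost label, and in total level none rose and 1 fell (27.4% and 23.9% of all genes). ZBTB33, known as Kaiso, had shares of 61.2, 64.8, 61.9, 56, 43.7, 1.31 and 0% and a half-life of 2.07 ± 0.394 h (1.43 to 3.01 h). Its total fell by 0.53 on the log2 scale over 12 h (adjusted p = 0.00494), by 0.82 without the 12 h library, and with the 1 to 12 h libraries it was not called (adjusted p = 0.0791). ZBTB4 had shares of 42.9, 48, 47.1, 44.6, 31.3, 0.932 and 0.303% and a half-life of 1.95 ± 0.378 h (1.34 to 2.86 h). Its total changed by 0.01 on the log2 scale over 12 h (adjusted p = 0.957). ZBTB38 had shares of 65, 66.5, 60.4, 54.9, 45, 11.1 and 3.1%, the highest of the zinc-finger members at 8 h. Its half-life was 3.03 ± 0.235 h (2.6 to 3.53 h) and its total changed by -0.44 on the log2 scale over 12 h (adjusted p = 0.122). The intervals of ZBTB38 and of the other 2 overlapped.

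The 4 partners of MYC and p53 had half-lives from 1.56 to 2.36 h, and in total level 2 rose and 1 fell (27.4% and 23.9% of all genes). ZBTB17, or MIZ1, through which MYC represses genes, had shares of 39.4, 42.7, 38.1, 31.9, 26.2, 2.46 and 0.69% and a half-life of 2.05 ± 0.251 h (1.62 to 2.61 h). Its total rose by 0.63 on the log2 scale over 12 h (adjusted p = 0.0396), a call lost when any of the 0 h, 40 min, 1 h, 8 h or 12 h libraries was left out (adjusted p 0.0719 to 0.107). ZBTB2, a repressor in the p53 pathway, had CPM of 19.9, 23.6, 20.9, 17.9, 14.8, 10.5 and 12.5. Its total fell by 1.07 on the log2 scale over 12 h (adjusted p = 0.00321). Without the 12 h library it fell by 1.80, and with the 1 to 12 h libraries the change was -0.74 and not called (adjusted p = 0.0718). The shares were 57.8, 61.5, 60.3, 61.5, 45.9, 0 and 0.962%, flat to 1 h, with a half-life of 2.36 ± 0.599 h (1.44 to 3.88 h). ZBTB5, a repressor of CDKN1A, had shares of 60.9, 42.2, 61.5, 38.9, 26.1, 1.45 and 0% and a half-life of 1.56 ± 0.308 h (1.06 to 2.3 h). Its total rose by 0.60 on the log2 scale over 12 h (adjusted p = 0.0266), a call lost without the 0 h, 20 min, 8 h or 12 h library (adjusted p 0.0523 to 0.0641). ZBTB49, an activator of CDKN1A, had 26.6 reads on average. Its shares were 52.6, 58.3, 41.4, 52.6, 31, 2.94 and 0% and its half-life was 1.95 ± 0.462 h (1.22 to 3.1 h). The total changed by 0.45 on the log2 scale over 12 h (adjusted p = 0.444).

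The 3 telomere-associated members had half-lives from 1.47 to 1.91 h, and in total level 1 rose and 1 fell (27.4% and 23.9% of all genes). Without the 8 h library 1 of the 3 was under 2 h, and with the 0 to 2 h libraries none was. ZBTB48, or TZAP, which binds telomeric repeats, had shares of 32.7, 25.8, 24.1, 22.2, 17.2, 0 and 0% and a half-life of 1.47 ± 0.369 h (0.901 to 2.41 h). Its total changed by -0.17 on the log2 scale over 12 h (adjusted p = 0.577). ZBTB10 had shares of 62.8, 61, 54.5, 56.2, 31, 0 and 0% and a half-life of 1.67 ± 0.297 h (1.18 to 2.36 h), and its total fell by 0.57 on the log2 scale over 12 h (adjusted p = 0.0134). ZBTB40 had CPM of 27.7, 30.7, 26.2, 36, 30.7, 48.1 and 48.6, highest in the late libraries. Its total rose by 0.68 on the log2 scale over 12 h (adjusted p = 0.00252). The shares were 45.2, 46.1, 50.8, 39.5, 31.5, 1.67 and 0.496%, and the half-life was 1.91 ± 0.284 h (1.43 to 2.56 h).

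The 8 other resolved members, ZBTB8A, ZBTB21, ZBTB22, ZBTB26, ZBTB34, ZBTB37, ZBTB41 and ZBTB45, had half-lives from 1.63 h (ZBTB22) to 2.25 h (ZBTB21). Of these, ZBTB22 rose by 0.80 on the log2 scale over 12 h (adjusted p = 0.0134). ZBTB34 fell by 0.40 on the log2 scale over 12 h (adjusted p = 0.0417), and this call was lost without the 0 h, 20 min, 40 min, 1 h or 12 h library (adjusted p 0.0555 to 0.294). ZBTB42 and ZBTB47, with 23.7 and 27.4 reads on average, had fitted values of 2.45 h (95% interval 1.21 to 4.95 h) and 4.39 h (1.23 to 15.7 h) that were too wide to resolve. ZBTB47 shares were 25, 20, 33.3, 37.8, 56, 7.14 and 0%, highest at 2 h, on few reads.

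Segments of 1 gene can differ in how much label they show. In ZBTB7A a second segment (start 4047740 on chromosome 19, hg19; mean 525 reads) had a labelled share of 0.814% at 0 h and at most 1.76% in any library. The main segment (start 4044362) had 43% at 0 h. T makes up 7.6% of the last 250 bases of the second segment's transcript and 16.8% of those of the main one's, and a read with no T can show no conversion. Over 34 ZBTB genes Spearman's rho between the fitted share at 0 h and the T content of the transcript's last 250 bases was 0.61, and 0.55 over all genes. Differences in starting share between members go along with T content, and its part in them was not tested. In ZBTB44, 5 segments had half-lives from 2.27 to 3.64 h, and the interval of the lowest (1.8 to 2.87 h) did not overlap that of the highest (2.95 to 4.5 h). The second ZBTB8OS segment gave 8.17 ± 1.33 h, also above every zinc-finger member.

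Cells without 4sU differed from those at 0 h in the level of several members, with 1 library on each side and no test. ZBTB7A was at 252 CPM without 4sU and 615 at 0 h, 2.44-fold higher with 4sU (95% exact interval 2.26 to 2.64, counting error only). Of 37 members, 8 were at least 2-fold lower without 4sU and 4 at least 2-fold higher, where 21.3% and 17.3% of 10643 genes were. The count of lower members is near the share over all genes and does not set the family apart. The lower ones were ZBTB48, ZBTB3, ZBTB6, ZBTB8OS, ZBTB4, ZBTB33, ZBTB21 and ZBTB7A, with ratios of no 4sU to 0 h from 0.172 to 0.41. The 2 lowest, ZBTB48 and ZBTB3, had 3 reads each without 4sU, with intervals of 0.0344 to 0.532 and 0.0365 to 0.567. The intervals of ZBTB4 and ZBTB21 also reached above 0.5, and those of ZBTB6, ZBTB8OS and ZBTB7A lay below it. The higher ones were ZBTB42, ZBTB47, ZBTB45 and ZBTB49, with ratios of 3.98, 3.73, 2.25 and 2.04; the interval for ZBTB49, 0.928 to 4.36, included 1. ZBTB44 was at 195 CPM without 4sU and 112 at 0 h, a ratio of 1.74 (1.57 to 1.93). The library without 4sU was also the shallowest, and the labels do not state whether its cells had the same washes and medium changes, which cannot be told apart from the label.

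**Figure D4:**
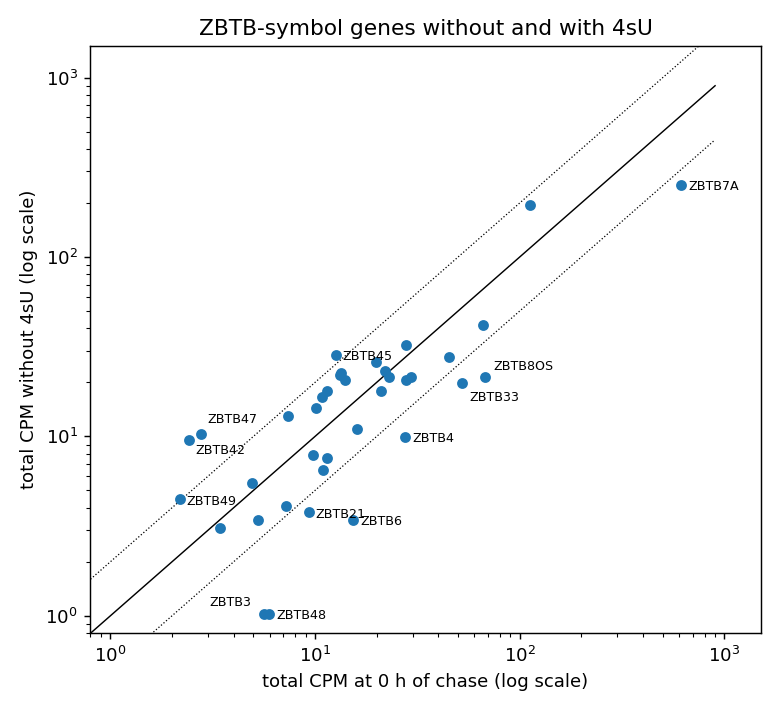
Total CPM without 4sU (vertical, log axis) against total CPM at 0 h (horizontal, log axis) for the 37 genes, 1 library each. The solid line marks equal levels and the dotted lines 2-fold differences; the 12 named genes lie at or beyond the dotted lines, 8 below and 4 above.

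Related gene lists gave the family its context. Other BTB zinc-finger genes under different symbols had a median half-life of 1.62 h over 6 resolved genes, from BCL6 at 1.39 h to MYNN at 2.53 h. BCL6, the germinal-centre repressor, rose by 1.55 on the log2 scale (adjusted p = 3.97e-05) and MYNN fell by 1.35 (adjusted p = 0.000443). The 20 corepressors and partners that BTB domains work with had a median of 2.89 h, 3 of 20 under 2 h, and HDAC1 was the longest at 5.54 h. In total level 13 of these 20 rose and 2 (SIN3A and NACC1) fell, against 27.4% and 23.9% of all genes. The 31 tested BTB proteins of other classes and CUL3 ligase subunits had a median of 2.14 h, from KLHL20 at 1.23 h to RBX1 at 9.76 h, with 8 rises and 10 falls (the same all-gene shares apply). These lists are described by their counts and medians only.

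Promoter windows of 300 bases were matched by symbol for 32 of the 37 members and searched on both strands for letters of which none contains another. A gene was counted where any of its windows held the letters. The letters CCGGAAG, a core bound by ETS factors, were in 12 of 32 (37.5%), against 12.2% of 27305 genes in the RefSeq table and 16.5% of its 15842 protein-coding genes. The members had passed the read minimum, whereas neither set of comparison genes was filtered by reads. The part of this filter in the differences was not tested. CACGTG was in 8 of 32 (25%), against 8.77% and 10.9%, with ZBTB1, ZBTB25 and ZBTB8OS among them. In the windows of ZBTB1 and ZBTB25 printed above it is the same site, within the shared bases, counted for both genes. CTCGCGAG was in none of the 32, against 1.23% and 1.8%, and TCCTGCNA, a Kaiso site, in 4 (12.5%, against 5.75% and 6.04%). GGGCGG was in 30 of 32 (93.8%, against 48.3% and 64.3%).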

How the data were processed

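THP-1 RNA was sequenced from 3′ ends (QuantSeq 3′ FWD, with S2 spike-in reads not used here) in 8 libraries, 1 per condition. The authors deposited raw counts per 3′ UTR segment, total and labelled (called nascent by them); the submitters' processing notes list Trim Galore 0.6.5, bcl2fastq 2.17.1.14 and, as builds, hg19 and dm3. Not given in the sources used here are the aligner, the counter and how many conversions made a read count as labelled.

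Each gene was represented by its most covered segment, named through GENCODE 29, leaving out 85 genes with counts equal to another gene's; 5.65% of counts had no name. Trends over hours were tested with edgeR 4.0.16 (R 4.3.3), quasi-likelihood, Benjamini-Hochberg adjusted over all genes with a mean of at least 20 reads (for label also at least 20 labelled reads), threshold 0.05. Labelled counts were offset by the gene's own total, and totals used TMM factors. Half-lives came from a binomial fit of an exponential plus the share without 4sU, shrunk with 100 prior reads, with errors widened by the Pearson dispersion. The tests and the fit were tested on simulated data. There the labelled shares were flat or followed an exact exponential, with binomial scatter only. They held no delay before the loss and no wider scatter, so they do not test the fit under those conditions. Genes with full values were chosen by half-life rank, largest called changes of total, abundance and role lists. Members and lists were chosen with earlier results of these data known. Alternatives varied libraries, time window, segments, filters, scaling, tool (DESeq2 1.42.0), background and amplitude.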

Additional observations from a re-analysis of the deposited data

How the results depend on the processing

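The label decline was called in 37 members (95.1% of all genes), and in 35 to 37 when each chase library was left out in turn (90 to 95.4%). With the 0 to 2 h libraries it was called in 25 of 37 members (29.6% of all genes). With the 1 to 12 h libraries it was called in 34 of the 34 tested (94.5%). The median half-life of 1.91 h ranged from 1.71 to 2.09 h over the same omissions and from 1.56 h (1 to 12 h libraries) to 2.11 h (0 to 2 h libraries) over the other alternatives; leaving out ZBTB8OS, an alternative chosen after seeing the data, gave 1.89 h. The 0 to 2 h median covers the 25 members still resolved. Over the 34 genes resolved with all chase libraries, without ZBTB8OS, it was 2.38 h. Against each half-life's own 95% interval, 18 of 35 were longer with the 0 to 2 h libraries. With the 1 to 12 h libraries 4 were shorter. All 35 stayed within their interval when any 1 library was left out. Fitting labelled CPM made 1 shorter, ZBTB1 at 2.25 h. Holding the amplitude at the 0 h share made 1 longer, ZBTB8OS at 46 h. Total level was called in 19 members, in 13 to 19 when a library was left out, in 9 with the 1 to 12 h libraries and in 1 with the 0 to 2 h libraries, both of which use fewer samples. With the 0 to 2 h libraries the fitted total change over 12 h reversed in sign for ZBTB17 (-0.48), ZBTB18 (-1.05), ZBTB25 (-0.09), ZBTB44 (-0.15), ZBTB46 (-2.57), ZBTB7B (-3.09) and ZBTB8OS (0.07), and the label change for ZBTB47 (7.86), ZBTB7B (1.54) and ZBTB8OS (1.77). None of these passed the threshold, and they extrapolate a 2 h window to 12 h. With DESeq2, 15 members were called for total level (48.8% of all genes). No paired analysis was possible because each condition had 1 library. Depth limits ZBTB42, ZBTB47, ZBTB20 and ZBTB49, and late shares of 0% allow up to 3 labelled reads.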

Other observations

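Genes that work with BTB proteins also changed in total level, and those below were picked after their values were seen. SIN3A and SIN3B, paralogous scaffolds of a histone deacetylase complex, moved in opposite directions: SIN3B rose by 1.81 on the log2 scale over 12 h (adjusted p = 0.000133) and SIN3A fell by 0.64 (adjusted p = 0.00395). Among BTB proteins without zinc fingers, RHOBTB3 rose by 2.09 (adjusted p = 1.80e-07) and KBTBD4 fell by 2.08 (adjusted p = 0.001), with half-lives of 1.93 ± 0.191 h and 2.2 ± 0.369 h. BTBD1, BTBD2 and RBX1, the RING subunit of the CUL3 ligase, had half-lives of 8.41 ± 2.71 h, 6.99 ± 1.62 h and 9.76 ± 1.67 h, while CUL3 itself had 2.12 ± 0.322 h. The difference between any 2 of these genes was not tested.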
